A study of Mus musculus with 407 samples.

Results

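The genes of the major histocompatibility complex (MHC) and of antigen presentation were followed across 4 skeletal muscles of ageing mice. Members were all gene symbols that start with H2-, together with B2m, Cd74, Ciita, Nlrc5, Tap1, Tap2, Tapbp, Psmb8, Psmb9 and Psmb10, which gave 53 of the 24458 gene symbols in the count tables. The rule looks members up by symbol and sets no threshold on a measured value. The study profiled total RNA from the diaphragm and from the gastrocnemius, soleus and tibialis anterior of the hindlimb, in both sexes at 6 ages (6 and 12 months, then 18, 21, 24 and 27), to follow gene expression through life. Each of the 48 groups held 6 to 10 libraries, 407 in all, and each combination of muscle and sex (a set) held 48 to 52.

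Every mouse was an untreated C57BL/6J animal from the Jackson Laboratory, bought at one of several ages and then kept in the study's own facility until collection. Muscles of 1 age were taken on the same day, so age and day of collection cannot be told apart. The labels do not tie the muscles of 1 mouse together, and the p-values below measure the spread between these libraries. All groups expressed the skeletal muscle markers fixed for this check. In 5 diaphragm libraries, however, Acta1 (skeletal actin) stood more than 5 times below the median of its set: replicate 2 at 6 months in both sexes, replicate 0 at 21 and 27 months in females, and replicate 6 at 27 months in males. Liver transcripts such as Alb were more than 10 times the set's median in 57 libraries, and 61 libraries met one or both descriptions. Member counts that rest on these libraries are given with and without them. Counts for the marker and pathway lists use all libraries.

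MHC class I molecules display peptides made inside the cell to CD8+ T cells, and are built from a heavy chain (H2-K1 and H2-D1 in this strain) and the light chain B2m. Peptides are cut by the immunoproteasome, of which Psmb8, Psmb9 and Psmb10 are subunits, pumped into the endoplasmic reticulum by Tap1 and Tap2, and loaded with the help of Tapbp (tapasin). MHC class II molecules (H2-Aa with H2-Ab1, and H2-E where both its chains are made) show peptides from outside the cell to CD4+ T cells. They belong mainly to dendritic cells, macrophages and B cells, where Cd74 (the invariant chain) and H2-DM guide peptide loading and H2-O restrains H2-DM. Nlrc5 is the transcriptional activator of the class I genes and Ciita that of the class II genes, and both act through an enhanceosome on promoter elements called the X and Y boxes.

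By role the members were 2 classical class I heavy chains, B2m, 30 other class I genes, 6 genes of peptide supply and loading, 5 class II chains, 6 class II loading genes, 2 regulators and H2-Ke6, which encodes a steroid dehydrogenase and is in the list by its name alone. RefSeq gave a position for 50 members, 45 of them on chromosome 17. It lists H2-K2, H2-Q5, H2-Bl and H2-T10, counted here with the other class I genes, as transcribed pseudogenes. H2-Ea-ps, the pseudogene of the H2-E alpha chain, and H2-M10.4 had no count in any library. Calls of H2-Eb1 and H2-Eb2 below are therefore of beta chain RNA, with no RNA of an H2-E alpha chain counted. Between 33 and 38 members passed the filter on low counts in a given set. Near-identical copies make some counts uncertain: 65.3% of the 76-base words of H2-Ke6 also occur in other genes, most often Gm20427, and 20.9% of those of H2-Q5, most often in H2-Q7, against 5.33% for H2-D1, 2.96% for H2-K1 and none for 25 members. For H2-T9, H2-Q8, H2-Q9 and H2-L this overlap could not be measured here, so their calls are uncertain in the same way.

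The X and Y boxes can be seen in the promoters. Searching the 250 bases before each RefSeq start (build GRCm38.p6), on both strands, for TGANG (letters of the X2 box) followed after 15 to 25 bases by ATTGG (the Y box on one strand) found the pair in 13 of 37 members with an entry and in 808 of 32851 promoters, 2.46% of all. Both classical heavy chains, B2m, all 3 class II chains with an entry and 3 of 5 class II loading genes held it, as did 4 of 20 other class I genes and none of the 5 peptide supply genes. ATTGG alone occurs in 33.8% of all promoters and TGANG alone in 84.8%. The windows below, read from 5′ to 3′ on the gene's strand, show 8 members whose RNA levels are described next, with both boxes in capitals. Class I and class II genes stand side by side, and their spacing was limited by the search.
H2-K1, chr17:34000349-34000418 (-): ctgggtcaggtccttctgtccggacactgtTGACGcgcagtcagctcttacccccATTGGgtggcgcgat
H2-D1, chr17:35262960-35263032 (+): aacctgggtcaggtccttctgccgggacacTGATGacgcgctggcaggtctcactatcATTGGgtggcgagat
B2m, chr2:122147579-122147648 (+): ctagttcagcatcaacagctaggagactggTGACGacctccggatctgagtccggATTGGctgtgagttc
H2-Q4, chr17:35379480-35379552 (+): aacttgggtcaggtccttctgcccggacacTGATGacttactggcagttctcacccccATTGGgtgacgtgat
H2-M3, chr17:37270155-37270227 (+): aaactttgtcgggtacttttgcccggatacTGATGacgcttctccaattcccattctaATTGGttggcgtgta
H2-Aa, chr17:34287857-34287927 (-): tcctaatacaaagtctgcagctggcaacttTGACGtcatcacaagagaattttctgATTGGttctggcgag
H2-Eb1, chr17:34305751-34305822 (+): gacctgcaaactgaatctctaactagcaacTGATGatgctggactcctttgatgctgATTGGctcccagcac
H2-DMb1, chr17:34153072-34153144 (+): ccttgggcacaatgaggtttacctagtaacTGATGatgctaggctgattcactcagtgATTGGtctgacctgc

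An interferon-stimulated response element, spelled GAAANNGAAA and searched on both strands, occurred in 3 of 37 members (B2m, H2-T22 and H2-T23) and in 2.98% of all promoters. In B2m it starts 139 bases before the gene's start, upstream of the X2 letters at 78, and is shown in capitals.
B2m, chr2:122147528-122147577 (+): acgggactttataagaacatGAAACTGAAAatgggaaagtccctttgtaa
These matches describe letters only, and the absence of a match in a window says nothing about a factor.

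Levels are given as CPM, the counts that fall to a gene out of 1000000 in its library, with library totals adjusted by edgeR's TMM factors. Per kilobase of exon, B2m led the members at 6 months in all 8 sets. Its median was 364 CPM per kilobase in the female diaphragm and 108 in the female tibialis anterior. In the female diaphragm the next medians per kilobase were those of Cd74 (75.2), H2-D1 (34.3), H2-Aa (25.3) and H2-K1 (22.2), and the 8 libraries of these genes overlapped with their neighbours in that order. The regulators were far lower, at 0.709 CPM per kilobase for Nlrc5 and 0.69 for Ciita. In the female tibialis anterior the class II chains sat lower in the order, with H2-Aa at 3.09 and H2-Ab1 at 2.63 CPM per kilobase against 10.7 for H2-D1 and 7.13 for H2-K1.

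The largest difference among the muscles was between the diaphragm and the limb. Averaged over the 6 ages, 38 of 40 tested members were higher in the female diaphragm than in the mean of the 3 limb muscles and 1 was lower, where 31.7% and 15.9% of all genes were called higher and lower (edgeR's quasi-likelihood test, Benjamini-Hochberg adjusted p below 0.05 and a fold above 1.5, the rule meant by "called", "rose" and "fell" throughout). In males 35 of 40 were higher and none lower, against 28% of all genes higher. H2-K1 ranged over all ages from 17.4 through a median of 85.0 to 279 CPM in the female diaphragm, and its medians in the female limb were 27.0 CPM (gastrocnemius), 20.9 (soleus) and 23.5 (tibialis anterior). The difference in H2-K1 was 1.79 ± 0.06 (SE) on the log2 scale in females and 1.22 ± 0.06 in males, and the ranges of single libraries overlapped.

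Class II genes stood further apart between diaphragm and limb than the classical class I genes and B2m did. H2-Ab1 had a median of 46.5 CPM in the female diaphragm (12.8 to 173) and 6.58 in the female soleus (2.63 to 23.8), and Cd74 had medians of 122 and 16.6 CPM. The log2 difference from the limb was 2.64 in females and 2.20 in males for H2-Ab1, 2.62 and 2.18 for Cd74, and 3.05 and 2.39 for Ciita. B2m, on every nucleated cell, differed by 1.78 and 1.29. Among the genes of the class I pathway the immunoproteasome subunit Psmb9 differed most (2.30 and 1.62), and Tapbp (1.02 and 0.80) and Psmb10 (0.79 and 0.58) least. The widest gaps were those of class II genes typical of B cells and dendritic cells, H2-Ob (4.36 and 3.39), H2-Oa (5.16 and 3.67) and H2-Eb2 (5.76 and 4.79), together with the class I genes H2-M2 and H2-Q1. H2-Ke6 and the near-absent H2-Q6 ran the other way, at -0.25 and -3.22 in females, and the fold of H2-Ke6 was under the limit.

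**Figure D1:**
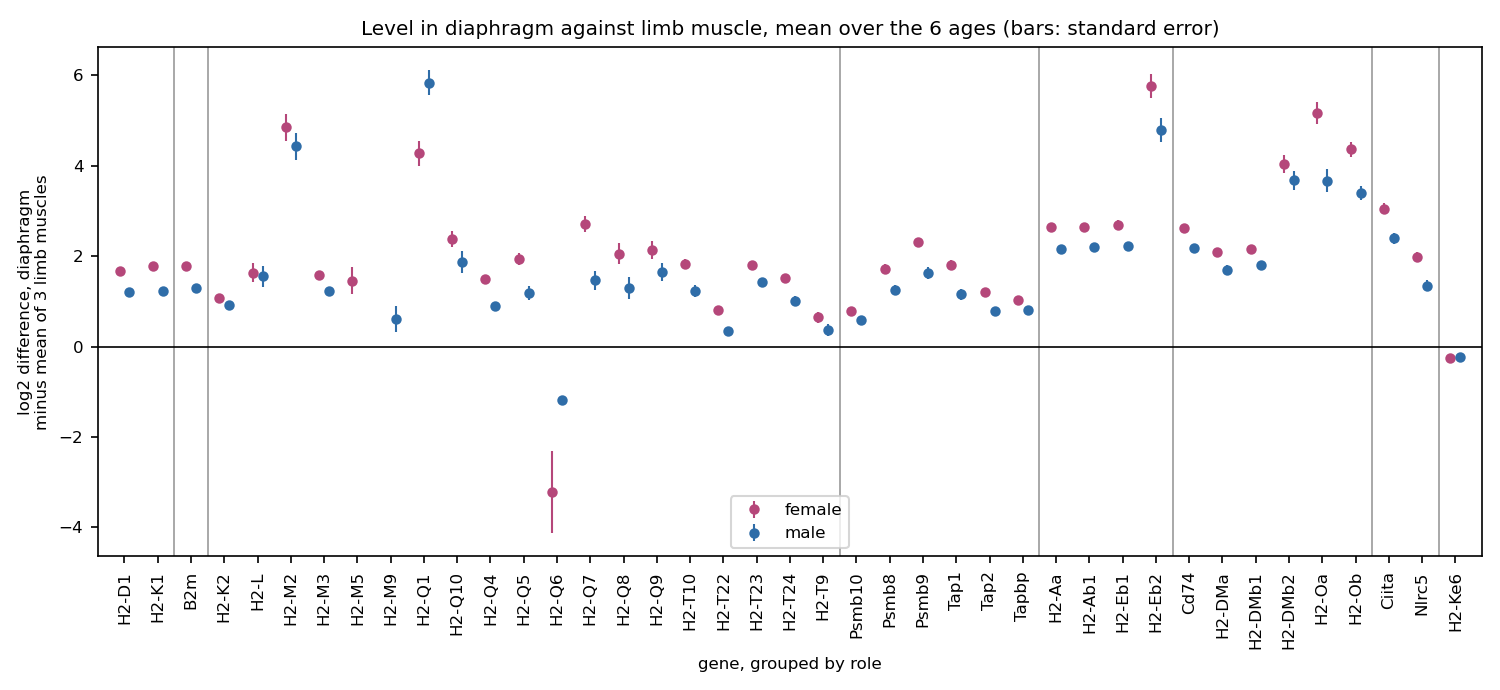
Log2 difference between the level of each tested member in the diaphragm and the mean of the 3 limb muscles, averaged over the 6 ages, with females in magenta and males in blue and bars for the standard error, which could not be computed for H2-Q6 in males. Class II chains and loading genes sit higher than the classical heavy chains, and only H2-Q6 and H2-Ke6 lie below 0.

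Markers of blood cells differed between these muscles in the same direction. The summed B cell list had a median over all ages of 25.8 CPM in the female and 12.5 in the male diaphragm and of 0.41 to 0.793 in the limb sets, and the summed T cell list had 4.96 and 4.37 against 0.229 to 0.433. Whole muscle was sequenced, so more cells of a type and more RNA per cell cannot be told apart, and the part of these cells in the member levels was not tested. With 6-month libraries only, 37 members were called in females and 22 in males. The share of all genes called at that age is not given here, so these counts cannot be weighed against it.

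The limb muscles differed less from each other. Against the mean of gastrocnemius and tibialis anterior, the female soleus had 1 member higher (H2-Q6) and 8 lower, where 16.8% and 12% of genes were called, and the male soleus had 1 higher (H2-Q6) and 6 lower, against 15.5% and 14.3%. H2-T22, a non-classical class I molecule seen by some gamma delta T cells, had medians of 2.96 CPM in the female soleus and 5.06 in the gastrocnemius (log2 difference from both muscles -0.75 in females and -0.72 in males), and H2-T9 was lower by -0.72 and -0.76. In the tibialis anterior against the gastrocnemius, 5 members were lower in females (2.51% of genes higher and 12.5% lower), and 1 was higher and 2 lower in males (2.83% and 11.4%). H2-Q10 was lower in the tibialis anterior in both sexes, at -1.19 and -1.27. Medians of the summed liver genes over all ages were 15.2 and 17.7 CPM in the gastrocnemius of females and males. In the tibialis anterior they were 7.84 and 3.05 CPM. The part of liver transcripts in the H2-Q10 difference was not tested.

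The main question was the change with age. At 27 against 6 months, members rose in 4 of the 8 sets and fell in none. The female tibialis anterior had the most, 21 of 34 tested members, where 5.93% of all genes rose and 1.08% fell. In the male diaphragm 16 of 38 rose (4.16% of genes rose and 1.44% fell), in the female gastrocnemius 9 of 35 (4.08% and 0.898%) and in the female diaphragm 2 of 38 (0.543% and 0.692%). None rose in the male gastrocnemius (0 of 34, against 3.88% and 1.53%), the female soleus (0 of 35, against 1.72% and 2.41%), the male soleus (0 of 34, against 0.808% and 0.378%) or the male tibialis anterior (0 of 33, against 2.81% and 1.29%). Counts by unadjusted p, here and below, have no share of all genes beside them. In these 4 sets 7, 3, 0 and 2 members had an unadjusted p below 0.05. DESeq2 called none of them in 3 of the sets and 1 in the female soleus, while the 2 that limma-voom called in the female soleus were lower (H2-DMa at -0.78 and H2-T9 at -1.88). The near-absent H2-Q6 in the female tibialis anterior did not pass (-2.57, adjusted p = 0.0661, edgeR's quasi-likelihood test), but was called lower by limma-voom (-2.67), with the runs of sample numbers described below as a term (-5.84, beside 13 members that rose), and without replicate 8 at 27 months (-5.80) or replicate 1 at 6 months (-2.75).

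The median log2 change of the tested members was 0.74 in the female tibialis anterior, 0.86 in the male diaphragm, 0.80 in the female diaphragm and 0.49 in the female gastrocnemius, beside medians over all tested genes of 0 to 0.03. For the male gastrocnemius it was 0.18, for the male tibialis anterior 0.14, and for the soleus 0.06 in females and -0.07 in males. The female diaphragm therefore had a median close to that of the male diaphragm with far fewer calls.

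**Figure D2:**
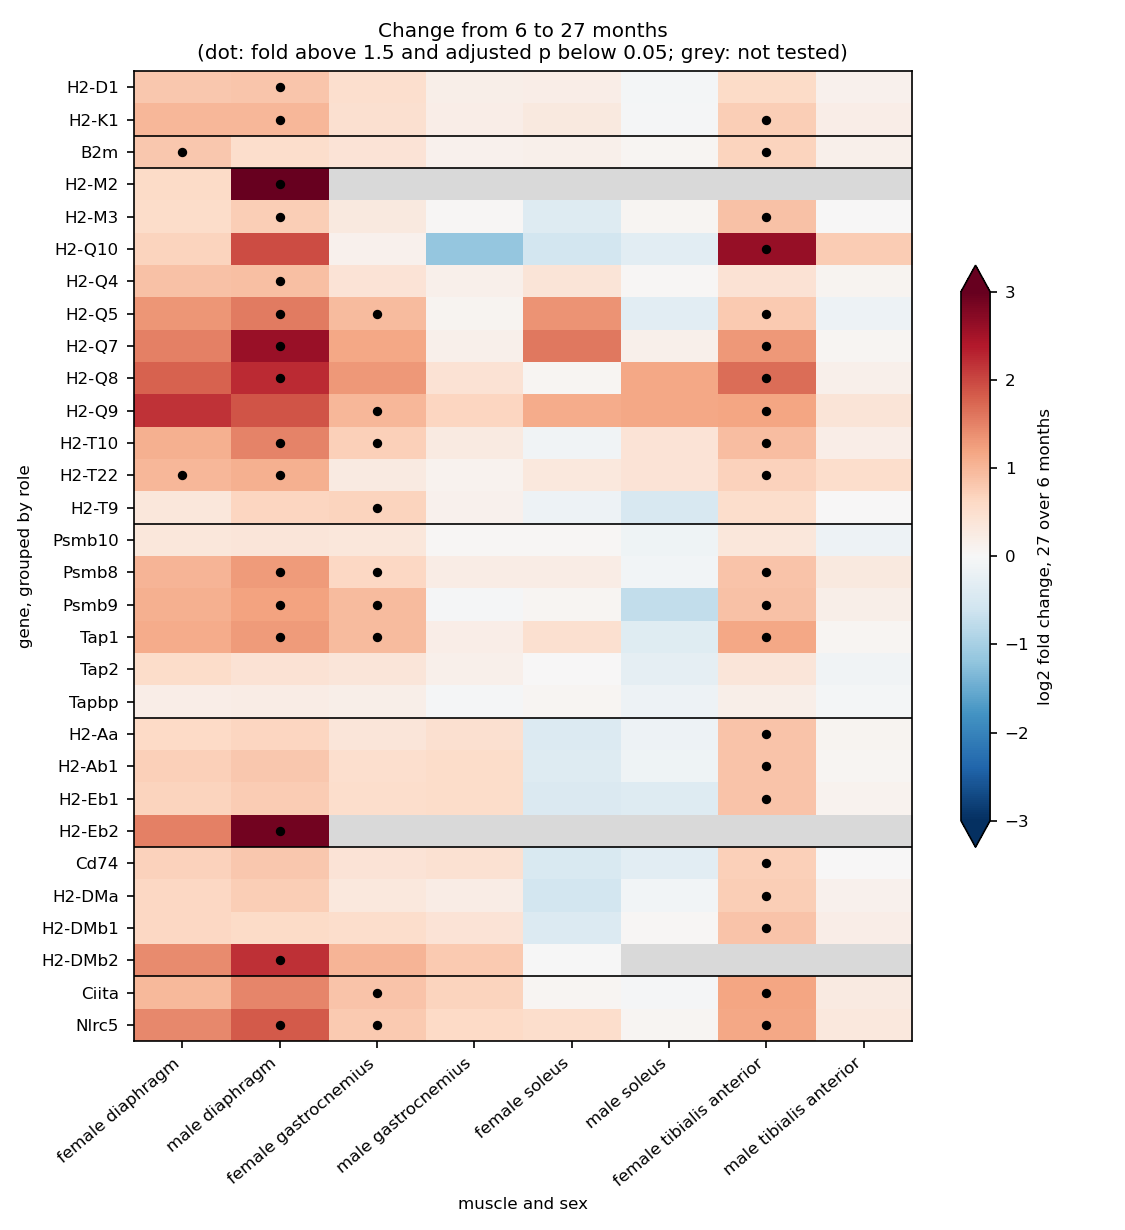
Log2 change from 6 to 27 months for every member called in at least 1 set and the remaining genes of peptide supply, in rows grouped by role with a column for each muscle and sex. Red is higher at 27 months, colours stop at 3 in either direction, dots mark the calls and grey cells were not tested. Dots fall in the diaphragm of both sexes, the female gastrocnemius and the female tibialis anterior, and none in the soleus of either sex or the other male limb muscles.

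Among the classical class I heavy chains, H2-K1 in the male diaphragm ran from 10.6 through 44.6 to 57.3 CPM in the 8 libraries at 6 months and from 43.2 through 81.5 to 137 in the 10 libraries at 27 months. The groups overlapped, with 8 of the 10 old libraries above every young one. The change was 1.00 ± 0.26 (log2, SE; adjusted p = 0.0152, edgeR's quasi-likelihood test). In the female tibialis anterior it went from 17.3, 21.0 and 28.9 CPM (lowest, median, highest) to 20.7, 29.7 and 65.0, with 5 old libraries above all young ones (0.73 ± 0.18, adjusted p = 0.00235). The female diaphragm showed the same size of change as the male (65.3 to 139 CPM at the median, 1.00) with an adjusted p of 0.0745. In the female gastrocnemius the change passed the test but not the fold limit (0.49, adjusted p = 0.0042), and in the male soleus the medians were 21.0 and 20.6 CPM (-0.04, adjusted p = 0.97).

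**Figure D3:**
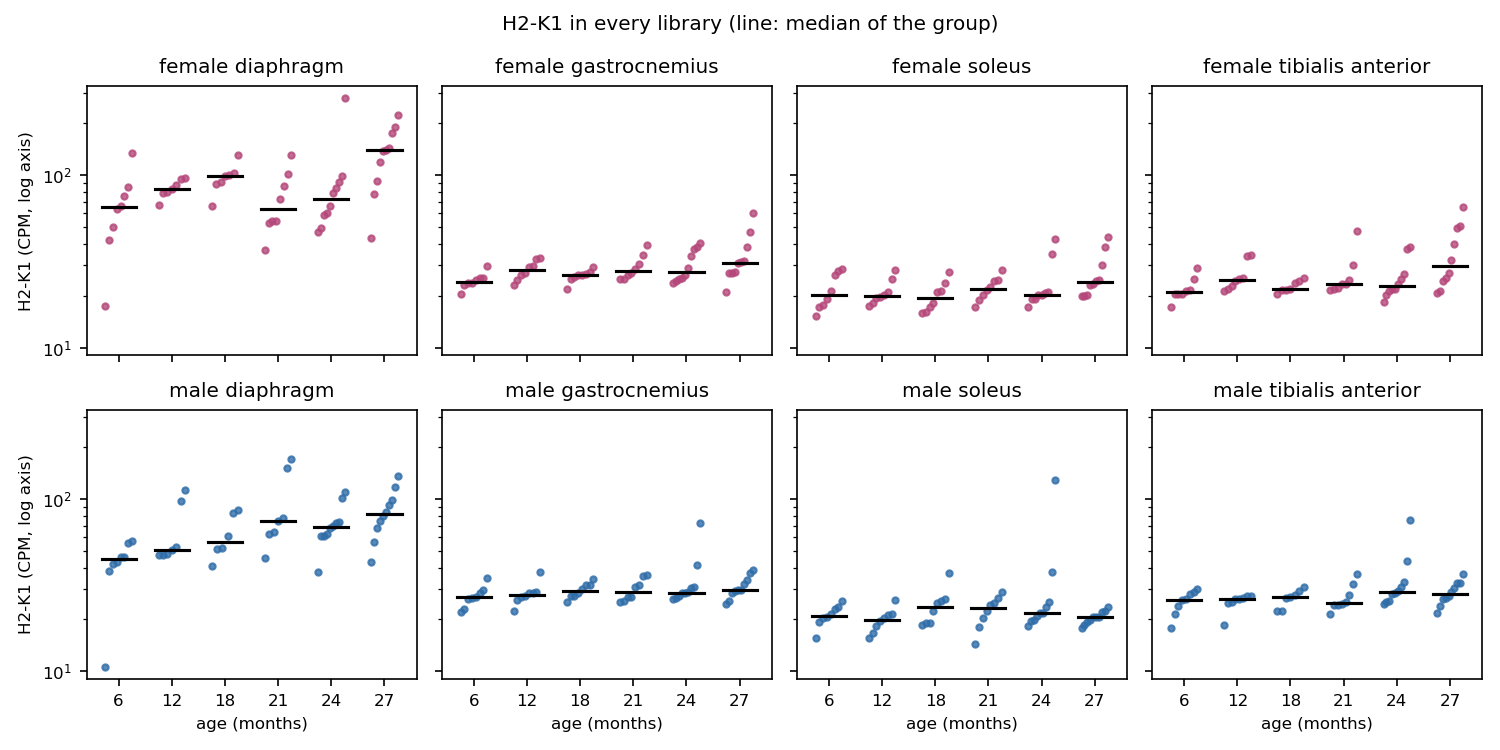
H2-K1 in CPM on a log axis in every library, by age in months, with a panel for each muscle and sex and a line at each group's median. In the male diaphragm the median goes from 44.6 CPM at 6 months to 81.5 at 27 months, and in the male soleus from 21.0 to 20.6, where 1 library at 24 months lies far above the rest.

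H2-D1 behaved much like H2-K1, going in the male diaphragm from 8.31, 61.9 and 77.7 CPM to 46.7, 105 and 154, again with 8 of 10 old libraries above the young range (0.83 ± 0.24, adjusted p = 0.0262). The lowest 6-month library of the male diaphragm for both genes was the one with low Acta1.

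B2m, the light chain shared by class I molecules, rose in the female diaphragm and tibialis anterior. In the female diaphragm it went from 192, 313 and 503 CPM to 336, 564 and 1085, with 7 of 10 old libraries above all young ones (0.82 ± 0.22, adjusted p = 0.0418). The highest of these was replicate 0, of low Acta1. Without libraries of low Acta1 B2m stood at 0.71 and was not called (adjusted p = 0.0505, edgeR's quasi-likelihood test). Without libraries of either kind it was called, also at 0.71 (adjusted p = 0.0487). In the female tibialis anterior it went from 79.3, 93.3 and 117 to 85.9, 132 and 294 CPM (0.67, adjusted p = 0.00353). The male diaphragm had medians of 227 and 311 CPM and did not pass (0.53, adjusted p = 0.143), so there the heavy chains were called and the light chain was not. The difference between the sexes in these changes was tested below and was not called.

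For peptide supply, Tap1 in the male diaphragm went from 0.682, 3.81 and 5.03 CPM to 3.32, 7.01 and 17.2, with 7 old libraries above the young range (1.27, adjusted p = 0.0318). In the female gastrocnemius Tap1 went from 1.33, 2.29 and 2.66 to 1.83, 2.88 and 8.67 CPM (0.94, adjusted p = 0.0025), also with 7 above. In the female tibialis anterior the old group reached 16.4 CPM with a median of 2.61 against 2.14 (1.17, adjusted p = 0.00652). The immunoproteasome subunits Psmb8 and Psmb9 rose in the same 3 sets, by 1.27 and 1.20 in the male diaphragm, 0.62 and 0.94 in the female gastrocnemius, and 0.85 and 0.89 in the female tibialis anterior. Tap2, Tapbp and Psmb10, of the same pathway, were called in no set. Tap2 moved by 0.37 in both the female gastrocnemius and the female tibialis anterior (adjusted p = 0.0136 and 0.035), below the fold limit, and Tapbp lay between -0.16 and 0.23 in the 8 sets.

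Of the other class I genes, H2-T22, H2-T10 and H2-Q5 were each called in 3 sets. RefSeq lists H2-T10 and H2-Q5 as transcribed pseudogenes. In the female diaphragm H2-T22 went from 3.08, 5.68 and 7.55 CPM to 5.96, 11.6 and 14.1, with 8 of 10 old libraries above all young ones (1.00, adjusted p = 0.00829), and it rose by 1.06 in the male diaphragm and 0.68 in the female tibialis anterior. Its close relative H2-T10, which shares 15.5% of its words with other genes, rose in the male diaphragm (1.48), the female gastrocnemius (0.71) and the female tibialis anterior (0.93). H2-T9 rose in the female gastrocnemius from 2.24, 2.95 and 3.80 to 3.18, 4.28 and 7.32 CPM, with 9 of 10 old libraries above the young range (0.66, adjusted p = 7.93e-05).

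The Qa-2 genes H2-Q7 and H2-Q9 and their neighbours in the Q region were low and variable. H2-Q7 in the male diaphragm went from 0.0524, 0.497 and 0.927 CPM to 0.476, 2.66 and 6.80 (2.60 ± 0.64, adjusted p = 0.0114) and rose by 1.31 in the female tibialis anterior. H2-Q4 in the male diaphragm went from 12.4, 13.2 and 18.2 to 15.2, 23.2 and 45.2 CPM, with 8 old libraries above (0.90, adjusted p = 0.0066). H2-Q5 rose in 3 sets, by 1.55 in the male diaphragm, 0.94 in the female gastrocnemius and 0.79 in the female tibialis anterior. H2-Q8 rose in the male diaphragm and the female tibialis anterior, and H2-Q9 in the female gastrocnemius and tibialis anterior. Because these genes resemble each other, the split of reads among them is uncertain. H2-M3, which presents N-formylated peptides, rose in the male diaphragm (1.20 to 2.0 CPM at the median, 9 old libraries above) and in the female tibialis anterior (0.491 to 0.769 CPM). H2-M2 rose in the male diaphragm alone among the 2 sets in which it was tested, from a median of 0.0387 to 0.539 CPM.

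Class II chains were called in the female tibialis anterior. H2-Ab1 there went from 3.41, 6.76 and 7.54 CPM at 6 months to 6.21, 8.49 and 20.4 at 27 months, with 7 of 10 old libraries above every young one (0.86 ± 0.23, adjusted p = 0.0056). H2-Aa and H2-Eb1 rose by 0.85 each, also with 7 old libraries above. In the male diaphragm H2-Ab1 had medians of 30.2 and 42.8 CPM and 7 old libraries above the young range, but did not pass (0.80, adjusted p = 0.0956). Of the class II chains only H2-Eb2 was called there, at low levels (0.260 to 2.22 CPM at the median, 2.89 ± 0.96, adjusted p = 0.049). In the female soleus H2-Ab1 had medians of 8.32 and 6.71 CPM (-0.39, adjusted p = 0.374).

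**Figure D4:**
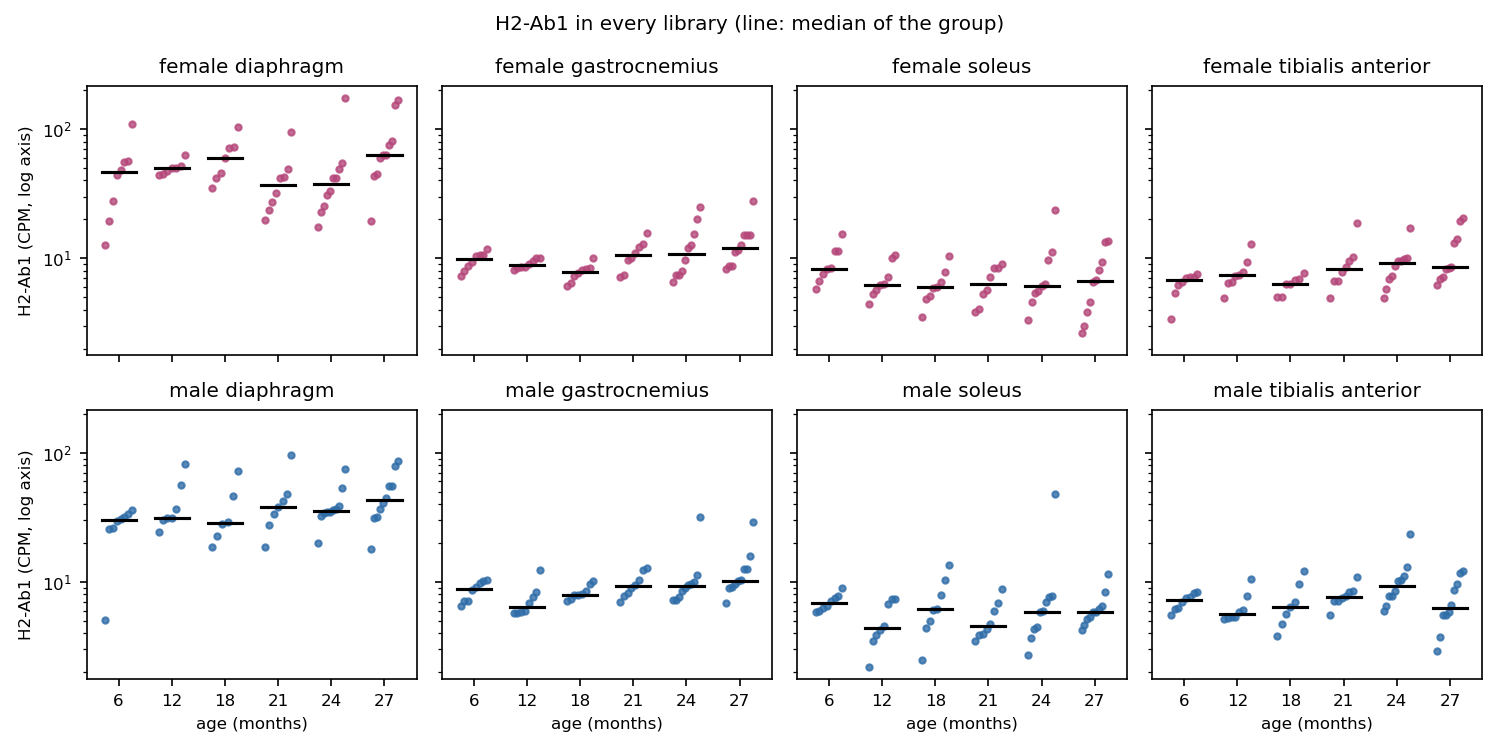
H2-Ab1 in CPM on a log axis in every library, by age in months, with a panel for each muscle and sex and a line at each group's median. The diaphragm panels lie above the limb panels at every age, and in the female tibialis anterior the median goes from 6.76 CPM at 6 months to 8.49 at 27 months.

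The genes that load class II molecules followed. Cd74 in the female tibialis anterior went from 11.4, 18.5 and 20.1 CPM to 16.2, 23.4 and 50.3, with 7 old libraries above (0.72 ± 0.22, adjusted p = 0.0136), and H2-DMa and H2-DMb1 rose by 0.74 and 0.86. H2-DMb2, which shares 15.9% of its words, mostly with H2-DMb1, rose in the male diaphragm from a median of 0.540 to 1.72 CPM (2.18 ± 0.67, adjusted p = 0.0357). Cd74 did not pass in the male diaphragm (0.81, adjusted p = 0.142), and in the female soleus it stood at -0.46 (adjusted p = 0.25). H2-Oa and H2-Ob were not called at 27 months in any set.

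Both regulators rose in 2 female limb muscles. Nlrc5 went from 1.26, 2.50 and 3.37 to 1.48, 3.52 and 8.47 CPM in the female gastrocnemius (0.79, adjusted p = 0.0208) and from 1.41, 2.27 and 4.32 to 1.65, 3.5 and 15.7 in the tibialis anterior (1.17, adjusted p = 0.013). Ciita went from a median of 1.04 to 1.86 CPM in the former (0.86, adjusted p = 0.017) and from 0.825 to 1.36 in the latter (1.18, adjusted p = 0.00632). Nlrc5 rose most in the male diaphragm, from 1.39, 3.55 and 4.84 to 4.76, 10.1 and 29.5 CPM, with 9 of 10 old libraries above all young ones (1.85 ± 0.41, adjusted p = 0.00469). Ciita there had medians of 3.68 and 7.77 CPM and did not pass (1.46, adjusted p = 0.0524). H2-Ke6, outside the pathway, passed the test without the fold limit in 4 limb sets with changes of 0.17 to 0.24.

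Relations between genes were computed on log2 CPM, as deviations from the mean of the age group, so differences between ages do not enter them. Across the libraries of a set, the regulators moved with genes of their class. Pearson's r between Nlrc5 and H2-K1 was 0.73 to 0.89 in the 8 sets and Spearman's rho 0.61 to 0.88 (permutation p of 1e-05 in each set, the smallest that 100000 resamples can give, and adjusted p of 1.33e-05 for r and 1.5e-05 for rho over the 48 relations computed). Without the 2 libraries farthest from the median of Nlrc5, r was 0.56 to 0.85. Between Ciita and H2-Ab1, r was 0.43 to 0.96 and rho 0.22 to 0.94, with adjusted permutation p-values below 0.05 in all 8 sets for r and in 7 for rho, the male soleus missing (p = 0.113 and adjusted p = 0.123 for rho). Without the 2 libraries farthest out r was 0.29 to 0.95. H2-Ab1 and H2-K1, of different classes, also moved together, with r of 0.40 to 0.91 (adjusted permutation p below 0.05 in all 8 sets) and rho of 0.26 to 0.85 (in 7, with the male tibialis anterior missing at p = 0.0627 and adjusted p = 0.0717). Without the 2 libraries farthest out r was 0.21 to 0.87. H2-Ab1 was related to Cd68, a macrophage gene, with r of 0.58 to 0.88 and rho of 0.51 to 0.84 (adjusted permutation p below 0.05 in all 8 sets for both), and r was 0.45 to 0.84 without the 2 farthest. With the B cell gene Cd79a, r and rho of H2-Ab1 both ran from -0.09 to 0.80, and passed in 5 sets for r and 3 for rho. The relation with Cd79a was not shown by either measure in the female soleus, the male gastrocnemius or the male tibialis anterior, and r was -0.08 to 0.76 without the 2 farthest.

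The count in the female tibialis anterior fell once libraries with high liver transcripts were left out. Replicates 0, 2, 4 and 9 at 27 months were of this kind, and without them 2 members were called, H2-Q9 (1.10) and H2-T10 (0.88). H2-K1 was then 0.49 (adjusted p = 0.0613, edgeR's quasi-likelihood test), B2m 0.44, H2-Ab1 0.57, Cd74 0.41 and Nlrc5 0.86. This fit had fewer old libraries, and the share of all genes it called is not given here. How much of the fall came from the smaller number of libraries was not tested. The 4 libraries had a median of 41.6 CPM of H2-K1 and the other 6 a median of 25.7, against 21.0 at 6 months. Leaving out replicate 9 alone gave 13 members, and 12 of the 21 were called whichever single library was left out, among them H2-K1, H2-Ab1, H2-Aa and H2-Eb1. The least stable were Psmb9, which was not called in 7 of the 18 fits, and H2-Q5 and H2-Q8, which were not called in 10.

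H2-Q10 is a secreted class I molecule made mainly by the liver, and it tracked Alb. In the female tibialis anterior it went from 0.0888, 0.147 and 0.190 CPM to 0.203, 0.509 and 3.36, the only member there with every old library above every young one (2.62 ± 0.52, adjusted p = 0.000172). All 6 liver genes of the marker list rose in that set, and their sum went from a median of 8.36 to 65.3 CPM. Without the 4 libraries H2-Q10 stood at 1.18 (adjusted p = 0.0591). In the female gastrocnemius at 18 months it went from a median of 0.410 to 2.48 CPM (2.36 ± 0.51, adjusted p = 0.00106), where 6 of 8 libraries were high in liver transcripts, and without them it was -0.49. Pearson's r between H2-Q10 and Alb was 0.32 to 0.87 and Spearman's rho 0.33 to 0.83 in the 8 sets (adjusted permutation p of 0.0245 or less for r and 0.026 or less for rho), and r was 0.29 to 0.84 without the 2 libraries farthest out. In the male soleus r fell from 0.54 to 0.02 once libraries of high liver transcripts or low Acta1 were left out.

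**Figure D5:**
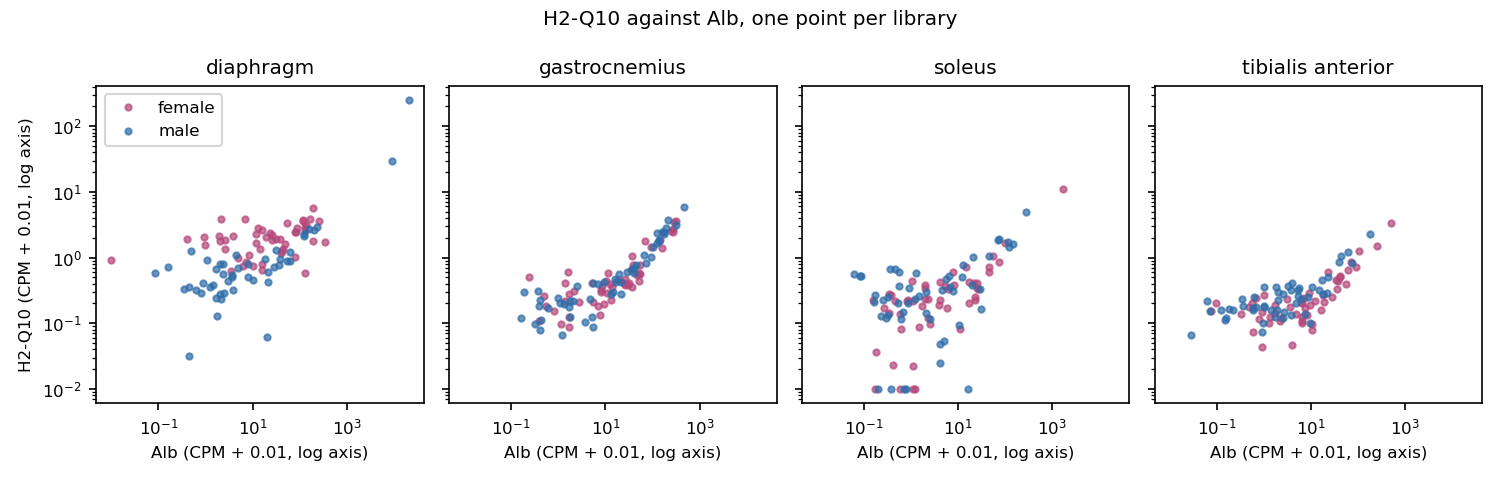
H2-Q10 against Alb, both in CPM plus 0.01 on log axes, with a point for each library and a panel for each muscle, females in magenta and males in blue. H2-Q10 is higher where Alb is high, and 2 male diaphragm libraries, at 246 and 29.3 CPM of H2-Q10, lie far from the rest.

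The number of calls in the male diaphragm changed with the libraries used as well. Without those of high liver transcripts 14 members were called, without those of low Acta1 13, and without either kind 7: H2-K1, H2-D1, H2-Q4, H2-Q7, H2-Q8, H2-T22 and Nlrc5. In that last fit Tap1 (1.22), Psmb8 (1.23) and H2-T10 (1.20) were not called. It kept 5 of the 8 libraries at 6 months, and how much of the fall came from the smaller number was not tested. The share of all genes called in the fits of this paragraph is not given here. Leaving out 1 library gave 7 to 20 members, with 10 or fewer without replicate 3, 5 or 7 at 6 months or replicate 5, 7 or 8 at 27 months. H2-K1, H2-Q4, H2-Q7, H2-T22, H2-T10 and Nlrc5 were called in all 18 of these fits. The labels number the samples, and each run of numbers was also used as a term (a step of 10 or more starts a new run). With it 1 member was called, H2-T22 (1.19, adjusted p = 0.0395, edgeR's quasi-likelihood test), while H2-K1 stood at 0.62 (adjusted p = 0.461) and Nlrc5 at 1.15 (adjusted p = 0.303).

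The counts in the other 2 sets with calls moved too, and the share of all genes called in these fits is not given here. In the female gastrocnemius the same 9 members were called without the libraries of high liver transcripts, 4 without replicate 0 at 27 months, and 14 with the runs as a term. In the female diaphragm the count was 7 without replicate 6 at 6 months, 5 without replicate 0 at 27 months (the library of low Acta1), 4 without libraries of either kind and 6 with the runs as a term. Only 1 was left without replicate 0, 1, 3, 4, 5 or 7 at 6 months or replicate 1, 3, 6 or 7 at 27 months. H2-T22 was called in all 18 fits that left out 1 library there, and B2m was not called in 11. In the sets without a call, 1 member was called in the female soleus without replicate 1 or 2 at 6 months or replicate 3, 4 or 8 at 27 months, 1 and 2 in the male gastrocnemius without replicates 0 and 8 at 27 months, and 1 in the male tibialis anterior without replicate 2 at 6 months or replicate 8 at 27 months.

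Blood cell markers rose in some of the sets with member calls, and also in the male gastrocnemius and tibialis anterior, which had no member call. In the female diaphragm no blood cell marker was called. All 4 pan-leukocyte genes rose in the male diaphragm, where their sum went from 39.8, 55.8 and 77.4 CPM to 44.1, 122 and 249, and in the female tibialis anterior, where it went from 6.36, 8.62 and 11.2 to 9.41, 13.8 and 29.1. Of the 4, 1 rose in the gastrocnemius of each sex and none in the other 4 sets. All 5 T cell genes rose in the male diaphragm (sum from 1.23, 1.75 and 2.32 to 1.08, 12.2 and 24.8 CPM), and Cd3e rose in the female tibialis anterior. Of 5 B cell genes Cd79a rose in the male diaphragm, where the sum went from 5.09, 5.95 and 21.4 to 0.245, 32.3 and 99.7 CPM. Of 8 macrophage genes, 2 rose in the male diaphragm and in the gastrocnemius of each sex, and 4 in the female tibialis anterior. Of 7 dendritic cell genes, 3 rose in the female gastrocnemius and the female tibialis anterior, and 1 each in the male diaphragm, gastrocnemius and tibialis anterior. The 4 endothelial genes were called in no set, the liver genes rose only in the female tibialis anterior, and of 7 skeletal muscle genes Myh7 rose in the gastrocnemius of both sexes and Myh2 fell in the female tibialis anterior. No gene of these lists was at 0 in both ages of a set. Whether the cells behind them account for the members' change was not tested. All of these marker calls used every library, including the 4 of 10 old ones of the female tibialis anterior with high liver transcripts.

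Interferon-induced genes outside the member list rose in the female tibialis anterior (6 of 8, Gbp2 among them, with the sum going from 49.5, 58.3 and 62.7 to 55.4, 65.5 and 661 CPM), the male diaphragm (2), the female soleus (2) and the female gastrocnemius (1), and in no other set. A list of 38 other genes of antigen presentation, from receptors and proteases to costimulatory molecules, had 36 in the tables. In the male diaphragm 8 rose, among them the transcription factors Irf1 (0.69) and Irf8 (1.45), the endosomal protease Ctss (1.30), the thiol reductase Ifi30 (0.97), and Cd80 (1.47), which costimulates T cells. In the female tibialis anterior 6 rose, including the lipid-presenting Cd1d1 (1.19) and Ctss (1.09). Cd1d1 fell in the male gastrocnemius (-0.59) and Ifi30 in the female soleus (-0.63), and the other 4 sets had no call. The calls of both lists used all libraries, and fits without those of high liver transcripts or low Acta1 are not given for them.

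Earlier ages gave few calls. At 12 months no member was called in any set, where 0.127% of all gene tests in the 8 sets together were called in either direction, and 0 to 11 members a set had an unadjusted p below 0.05. At 18, 21 and 24 months the share over the 8 sets was 1.2%, 3.53% and 3.55%. In the male diaphragm 8 members rose at 21 months (5.24% of genes): H2-K1 (1.13 ± 0.28), H2-D1, H2-Q4, H2-Q7, H2-Q10, H2-T22, H2-T10 and Nlrc5 (1.61). There H2-Q10 came from replicate 3 alone, at 246 CPM against 0.665 to 2.75 in the others. Without the 4 of 7 libraries of that group with high liver transcripts, and those of the same kind at other ages, only H2-Q7 was called (3.27), with H2-K1 at 1.06 (adjusted p = 0.136, edgeR's quasi-likelihood test) and Nlrc5 at 2.08 (adjusted p = 0.0693).

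In the male tibialis anterior 5 members rose at 24 months (4.62% of genes): H2-DMb1 (0.80), Psmb8 (0.84), H2-Eb1 (0.68), H2-T22 (0.64) and Nlrc5 (1.01). None was called without replicate 8 of that group, where the 5 changes were 0.31 to 0.56. In the female gastrocnemius H2-Q10 rose at 18 months (3.43%), and H2-DMb2 (1.43) and H2-Ob (1.32) at 24 months (3.4%). The only members that fell were in the female tibialis anterior, H2-L and H2-Q6 at 18 months (-2.05 and -5.61, where 0.514% of genes fell) and H2-L at 21 months (-2.11, 1.21%), and both were low. H2-Q6 shares 17.4% of its words with other genes, and H2-L has no RefSeq entry.

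A single slope on log2 age over all 6 ages gave a similar picture. Along it 13 members rose in the male diaphragm (3.78% of genes), in the female gastrocnemius 10 (4.91%) and in the female tibialis anterior 10 (6.2%). The female diaphragm had H2-T22 (1.12%), the male gastrocnemius Nlrc5 (0.67 from 6 to 27 months) and Ciita (0.64) against 5.42%, and the male soleus and male tibialis anterior none (1.62% and 4.14%). In the female soleus H2-Q5 rose (1.23, 2.22%) and H2-DMa fell (-0.64 ± 0.24, adjusted p = 0.0323, 4.24% of genes lower). H2-T23, the Qa-1 gene, was called along the trend in the male diaphragm (0.79) and not at 27 months. Medians did not climb evenly: H2-K1 in the female diaphragm had medians of 65.3, 83.6, 98.6, 63.9, 72.8 and 139 CPM from 6 to 27 months, and in the male diaphragm 44.6, 50.7, 56.5, 74.8, 68.4 and 81.5.

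Whether the change with age differed between muscles was tested as an interaction, with adjusted p below 0.05 and no fold limit. In males 10 members rose more in the diaphragm than in the limb from 6 to 27 months (4.03% of genes): H2-K1 by 0.89 ± 0.23 (adjusted p = 0.00685, edgeR's quasi-likelihood test), H2-D1 by 0.76, H2-Q4 by 0.83, H2-Q5 by 1.69, H2-Q7 by 2.49, Psmb8 by 1.14, Psmb9 by 1.42, Tap1 by 1.32, H2-Ob by 1.67 and Nlrc5 by 1.55. Without libraries of low Acta1 5 were called, and without those or the ones of high liver transcripts 1. The female diaphragm against the limb gave none (1.79%), with 5 members at an unadjusted p below 0.05. In females the log2 change of 5 members was lower in the soleus than in the gastrocnemius and tibialis anterior (4.6% of genes lower). The differences were -1.08 ± 0.36 for H2-DMb1, -1.05 for H2-Ab1, -0.98 for H2-Aa, -1.11 for H2-Eb1 and -0.95 for H2-M3. As given above, H2-Ab1 moved down in the soleus, where it was not called, and up in the tibialis anterior. With libraries of either kind left out 1 was called. The share of all genes that passed in the fits with libraries left out is not given here.

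The sexes differed in the diaphragm. Averaged over ages, 7 of 38 tested members were higher in females (3.12% of genes): Ciita by 0.68, Psmb9 by 0.67, Tap1 by 0.63, H2-Ob by 0.92, H2-Q5 by 0.59, H2-Q7 by 1.14 and H2-M2 by 1.52. Without the fold limit 21 were higher and none lower, B2m among them (0.43, adjusted p = 0.000689, edgeR's quasi-likelihood test), with medians over all ages of 373 CPM in females and 264 in males. The share of all genes that pass without the fold limit is not given here. In the gastrocnemius H2-DMb2, H2-Q6 and H2-M2 were higher in females (3 of 36, 5.05%), all at low levels. None was called in the soleus (2.49%) or the tibialis anterior (2.65%), and none had an unadjusted p below 0.05 there.

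The change from 6 to 27 months was not called as different between the sexes for any member in any muscle, where 1.02% of gene tests in the 4 muscles passed in either direction. At an unadjusted p below 0.05 there were 18 members in the tibialis anterior, 2 in the gastrocnemius, 1 in the diaphragm and none in the soleus, with no share of all genes beside these counts. The rise of 21 members in the female and none in the male tibialis anterior was therefore not shown to be a difference between the sexes.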

How the data were processed

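Per the labels and the study's methods, strand-specific total RNA libraries (rRNA removed) were read as pairs of 76 bases, and the authors deposited raw counts per gene from an ArrayStudio pipeline on mm10 with an in-house model based on RefSeq. The deposited counts (25091 gene rows, 38583802 to 300089909 per library, median 72766895) were used in edgeR 4.0.16 (R 4.3.3). Each set was filtered with filterByExpr, scaled by TMM and tested with edgeR's quasi-likelihood test over all genes with Benjamini-Hochberg adjustment. Standard errors are the absolute log2 change over the square root of F. Joint models over age compared muscles and sexes. Alternatives were limma 3.58.1 (voom), DESeq2 1.42.0, other scaling, filters, fold limits, Bonferroni adjustment, blocks and left-out libraries. The scripts were tested on simulated data.

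Genes fixed by role were named in full, with those called at 27 months in at least 2 sets or for an interaction, and those opposite to others of their role. H2-M2, H2-Eb2, H2-DMb2, H2-T9, H2-T23, H2-Oa, H2-Q1, H2-M5, H2-Ke6 and the pathway and marker genes with values were chosen after their values were seen. The members, the list of other pathway genes and the 9 marker lists were chosen with earlier results of these data known. The result of 1 gene that these lists count is not reported here. Promoters came from RefSeq (GRCm38.p6).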

Additional observations from a re-analysis of the deposited data

Results flagged for a closer look

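In 144 groups of 6 to 10 libraries, the highest or lowest library was checked for a gap to its neighbour that is large against the whole range (gap over range above Dixon's critical value), for the summed class I level (H2-K1, H2-D1 and B2m), the summed class II level (H2-Aa, H2-Ab1, H2-Eb1 and Cd74) and H2-Q10. This gave 14 results, and chance alone gives about 1 in 20 groups.

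At 24 months replicate 8 of the males stood high in all 3 limb muscles. Its class II sum was 190 CPM in the gastrocnemius (others 44.1 to 71.1, gap over range 0.673), 312 in the soleus (25 to 46.1, 0.758) and 146 in the tibialis anterior (38.3 to 77.4, 0.475). Its class I sum was 432 CPM in the gastrocnemius (145 to 228, 0.584), 823 in the soleus (134 to 272, 0.611) and 555 in the tibialis anterior (139 to 275, 0.507). The labels do not say whether the libraries came from 1 mouse. In the female diaphragm at 24 months replicate 1 was highest for both sums, at 1050 CPM for class II (105 to 346, 0.483) and 1390 for class I (301 to 658, 0.489).

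Diaphragm libraries of low Acta1 stood apart too. Male replicate 2 at 6 months had the lowest class II sum, 35.3 CPM (others 158 to 215, 0.831), and the highest class I sum, 508 (277 to 369, 0.528), although its H2-K1 and H2-D1 were the lowest of the group. Female replicate 0 at 27 months had the lowest class II sum, 83.3 CPM (267 to 1000, 0.468). H2-Q10 was highest in male diaphragm replicate 3 at 21 months, at 246 CPM (0.665 to 2.75, 0.772), and in replicate 6 at 27 months, which was also low in Acta1, at 29.3 CPM (0.0218 to 1.26, 0.56). Both of these libraries were high in liver transcripts. Male replicate 3 at 12 months had the lowest class I sum of the tibialis anterior, 132 CPM (152 to 172, 0.541).

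The change from 6 to 27 months differed between muscles by a test of the difference itself for 15 results. In females the log2 change was lower in the soleus than in the gastrocnemius and tibialis anterior for H2-DMb1 (-1.08), H2-Ab1 (-1.05), H2-Aa (-0.98), H2-Eb1 (-1.11) and H2-M3 (-0.95). In males the diaphragm changed more than the limb for H2-K1 (0.89), Psmb9 (1.42), Tap1 (1.32), Psmb8 (1.14), H2-Ob (1.67), H2-D1 (0.76), H2-Q4 (0.83), H2-Q5 (1.69), H2-Q7 (2.49) and Nlrc5 (1.55).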

How the results depend on the processing

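None of the 48 single-gene results changed direction under the alternatives run, and DESeq2's scaling (RLE) kept all 8 counts at 27 months within 1.5 times. The cause of the moves below was not tested, except that Bonferroni adjustment and the fold limits change the rule itself. The share of all genes called under each alternative is not given here. The alternatives at 18, 21 and 24 months and those without libraries of low Acta1, without either kind of library and without the 24-month libraries that stood apart were chosen after seeing the data. Summing gene rows that share a symbol changes nothing, since each member has 1 row. Members that did not pass the filter on low counts could not be compared at this depth.

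At 27 months limma-voom called 5 members in the female diaphragm (2 in the report), 6 in the male diaphragm (16) and 2 in the female soleus (0), both lower, and DESeq2 called 5 in the female diaphragm and 1 in the female soleus. Bonferroni adjustment left 0 in the female and male diaphragm, the female gastrocnemius and the female tibialis anterior. The lower fold limit gave 17 in the female gastrocnemius and 1 in the male tibialis anterior, and no fold limit gave 18 in the female gastrocnemius and 1 each in the male gastrocnemius, female soleus and male tibialis anterior. With no filter on low counts 1 was called lower in the male gastrocnemius (H2-Q6, -5.57) and 1 in the female soleus (H2-M5, -4.41). Runs of sample numbers as a term gave 6 and 1 in the female and male diaphragm, 14 and 4 in the female and male gastrocnemius, 1 in the female soleus and 1 in the male tibialis anterior, and 13 higher with H2-Q6 lower in the female tibialis anterior. Without libraries of high liver transcripts the female tibialis anterior had 2, and without either kind it had 2, the female diaphragm 4 and the male diaphragm 7. Without the 24-month library that stood apart the female diaphragm had 5 and the male gastrocnemius 2. Leaving out 1 library gave 1 to 7 in the female diaphragm, 7 to 20 in the male diaphragm, 4 to 12 in the female gastrocnemius, 0 to 2 in the male gastrocnemius, 0 to 1 in the female soleus, 0 in the male soleus, 13 to 23 in the female tibialis anterior and 0 to 1 in the male tibialis anterior.

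At other ages, leaving out libraries of high liver transcripts, or of either kind, moved the male diaphragm at 21 months from 8 to 1, the female gastrocnemius at 18 months from 1 to 0 and the female tibialis anterior at 18 months from 2 to 1. The male tibialis anterior at 24 months went from 5 to 0 without replicate 8. For the slope on age, age in months gave 2 in the female diaphragm (1), 6 in the male gastrocnemius (2), 1 in the female soleus (2) and 2 in the male tibialis anterior (0). With limma-voom it was 6 in the male diaphragm (13), 1 in the male gastrocnemius, 1 in the female soleus (H2-DMa, lower) and 6 in the female tibialis anterior (10), with H2-Q6 among them as lower.

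Between muscles, 6-month libraries alone gave 4 for the female soleus (9), 3 for the male soleus (7), 22 for the male diaphragm (35) and 0 for the tibialis anterior against the gastrocnemius in females (5) and males (3). limma-voom gave 13 for the male soleus and 1 in each sex for the tibialis anterior, and without either kind of library the tibialis anterior had 3 in females and 1 in males. For a different change with age, the female soleus (5) had 2 with limma-voom, 8 without low Acta1 and 1 without either kind, and the male diaphragm (10) had 5 and 1 without them. Between the sexes the diaphragm (7) had 4 with limma-voom and 11 without low Acta1, the gastrocnemius (3) had 1 with limma-voom, and the soleus (0) had 2 without either kind.

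Replicate numbers did not meet the rule for pairing, a correlation of deviations over 0.1 in every same-numbered pair. The median correlation was -0.0073 to 0.1503 across muscles and -0.0542 to 0.0759 across ages. Among male limb muscles it was highest, at 0.1503 for gastrocnemius and tibialis anterior (over 0.1 in 32 of 51 pairs) and 0.1481 for soleus and tibialis anterior (35 of 51). Pairs of different numbers had medians of -0.0316 and -0.0145 there. A miss of this rule therefore does not show that same-numbered muscles came from different mice. The models without the block treat these libraries as independent. With age and number together as a block, the male counts between muscles were 34 (diaphragm), 8 (soleus) and 4 (tibialis anterior), with 13 for the age change of the diaphragm. Within sets, with the number as a block, 1 and 4 members were called at 27 months in the female and male diaphragm and 12 in the female tibialis anterior, of which 11 were higher and H2-Q6 was lower (-4.22, adjusted p = 0.0234, edgeR's quasi-likelihood test). The slope on age then had 5 in the male diaphragm, 0 in the male gastrocnemius, 1 (lower) in the female soleus and 4 in the female tibialis anterior, the last with H2-Q6 lower, and the sexes differed in the diaphragm for 4. The block moved no other count beyond 1.5 times.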
